A study of Mus musculus with 6 samples.

Results

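Regulators of G protein signalling (RGS proteins) were examined in resting mouse CD4 T cells treated with vasoactive intestinal peptide (VIP) or left untreated. Every non-control probe whose gene name in the scanner tables is Rgs1, Rgs2, Rgs3, Rgs9, Rgs10, Rgs11, Rgs14, Rgs16, Rgs18 or Rgs19 was taken. This gave 10 of the 28632 gene names on the array and 17 of its 41174 probes. The signal filters left 15 probes of 9 of these genes, among 27454 probes of 19225 genes in all. The gene that did not pass was Rgs18.

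Each of 6 2-colour arrays set 1 VIP-treated sample against 1 untreated sample, which makes 6 samples of each kind, and the labels call the arrays biological replicates. All cells came from C57BL/6J spleens of male and female mice aged 6 to 32 weeks, with 5 to 10 spleens pooled per sample and no genetic change named. Cells were selected with magnetic beads against CD4 alone, so the selection itself does not separate naive from other CD4 cells, although the series text calls them naive. How much VIP was added, and for how long, is not given in the sources used here. Dyes were swapped between arrays: VIP-treated RNA was labelled with Cy5 for replicates 1, 3 and 5, and with Cy3 for replicates 2, 4 and 6. Replicates 1 and 2, 3 and 4, and 5 and 6 shared a slide.

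Receptors coupled to heterotrimeric G proteins switch on the G-alpha subunit by letting it bind GTP. RGS proteins speed up the hydrolysis of that GTP and so end the signal, most of them on the Gi and Gq classes. In lymphocytes they are known for limiting responses to chemokines and sphingosine 1-phosphate. The receptors for VIP couple mainly to Gs, which raises cyclic AMP (cAMP), and cAMP-responsive genes can carry the cAMP response element near their start.

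Rgs2 and Rgs1 had the highest log2 ratios of VIP over untreated among the tested members, so the sequences they were read with are shown first. The Rgs1 probe lies at chr1:146091962-146092021 on the minus strand of mm9, and both Rgs2 probes lie on the same strand, at chr1:145848293-145848352 and chr1:145847227-145847286. The starts of the Rgs2 probes are 1066 bases apart, and the second lies further towards the 3′ end. All probes have 60 bases, of which the first 30 are given here in lower case with nothing marked.
Rgs1 A_51_P260683: cccttggataaccagtccaaaagtatatag
Rgs2 A_51_P419768: agggtgttgacgttcttaggactacagatc
Rgs2 A_52_P378968: ctatttgccaaaagaaatagtctttatgac

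Upstream sequence was searched for the cAMP response element TGACGTCA and the shorter core TGACG on both strands. A match to the full element also holds the core. Windows of 300 bases, 250 before and 50 after a gene's start, were taken from RefSeq on GRCm38.p6, and 6 of the 10 genes had 9 of them. Rgs1, Rgs11, Rgs14 and Rgs18 had no window and were not searched. Among these 9 the core was found only in the Rgs2 window, with 2 matches, and the full element in none. Of all 32851 windows 20.8% held the core and 1.79% the full element. The 250 bases before the Rgs2 start are printed 5′ to 3′ on the minus strand, chr1:144004150-144004399, with the core matches in capitals. The first match reads CGTCA, the core on the other strand, and begins 185 bases before the start, and the second reads TGACG and begins 67 bases before it.
Rgs2 upstream region: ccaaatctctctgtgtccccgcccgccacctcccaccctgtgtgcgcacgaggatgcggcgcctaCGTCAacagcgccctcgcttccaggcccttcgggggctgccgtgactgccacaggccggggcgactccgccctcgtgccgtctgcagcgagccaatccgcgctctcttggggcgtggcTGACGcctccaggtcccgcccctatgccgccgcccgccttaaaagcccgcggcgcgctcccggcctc

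With VIP, none of the 9 tested genes passed the test across all genes, and 1 Rgs2 probe passed it across all probes. Called genes are those with an adjusted p under 0.05 by limma, with Benjamini-Hochberg adjustment over all genes, and these were 594 of 19225 (3.09%). The members at 0 of 9 stand against that share. At an unadjusted p under 0.05 by limma, 3 of 9 were higher with VIP (Rgs1, Rgs2 and Rgs9) and none was lower, where 7.51% of all genes were higher. In either direction, 3213 of the 19225 genes had such a p. The fitted log2 ratio of VIP over untreated was positive for 6 genes and negative for 3. The median of the 9 ratios was 0.077, beside -0.0048 over all tested genes. Each gene is represented here by its brightest probe. Since whole samples were measured, fewer cells of a type and less RNA per cell cannot be told apart.

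**Figure D1:**
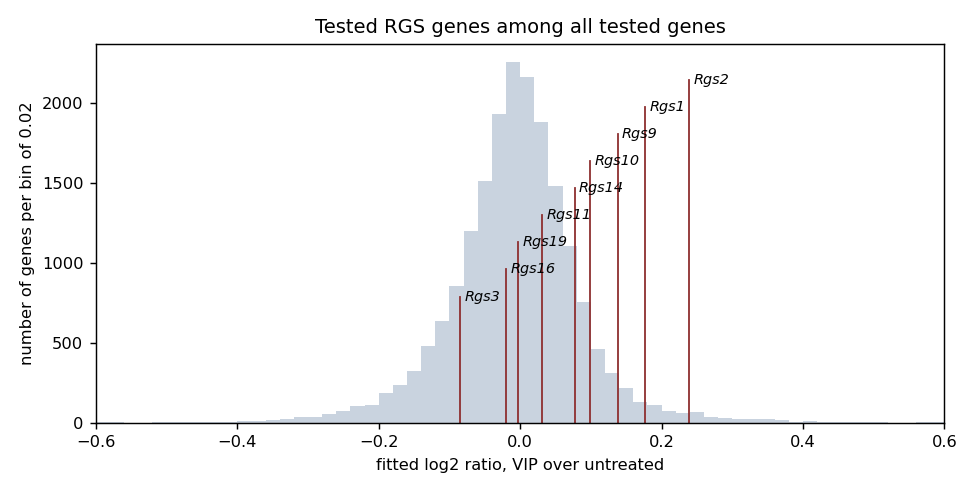
Fitted log2 ratio of VIP over untreated (x axis) for all 19225 tested genes as a histogram in bins of 0.02, with a labelled line at each of the 9 tested RGS genes. The genes with the most extreme ratios lie beyond the axis on either side and are not drawn. Line heights only separate the labels. The RGS genes run from -0.08 (Rgs3) to 0.24 (Rgs2).

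Most RGS genes of lymphocytes belong to the R4 subfamily, small proteins with little beyond the RGS domain. Of these, Rgs2, which acts preferentially on Gq, had the highest ratios, and it was read by 2 probes. The level at its dimmer probe, A_52_P378968, is a normalized log2 intensity and had a lowest, median and highest value of 8.05, 8.18 and 8.44 in the VIP-treated samples. In the untreated samples these were 7.64, 7.86 and 8.12. The groups overlapped at their edges, but on each of the 6 arrays the VIP-treated sample was the higher of the pair.

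The log2 ratios at A_52_P378968 were 0.18, 0.29 and 0.32 where VIP carried Cy5, and 0.38, 0.23 and 0.56 where it carried Cy3. By slide the mean ratio was 0.28, 0.26 and 0.44. The highest single value was that of replicate 6, and neither dye nor any slide gave a ratio below 0.18. The probe rose 1.25-fold with VIP (log2 ratio 0.33 ± 0.05 (SE, n = 6), 95% interval 1.16 to 1.35-fold, adjusted p = 0.0069 by limma over all probes). It was the only one of the 15 tested member probes to pass, where 2.88% of all tested probes did. Values higher with VIP on 6 of 6 arrays were seen at 2 of the 14 member probes measured on every array, this one and Rgs1, against 3.73% of all such probes.

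The brighter Rgs2 probe, A_51_P419768, stood for the gene and was measured on 5 arrays, because the scanner software had marked its spot on replicate 6 as an outlier. Levels were 16.5, 17.1 and 17.4 (lowest, median, highest) with VIP and 16.3, 16.8 and 17.0 without. Ratios were 0.44, 0.15 and 0.62 with VIP in Cy5 and 0.05 and 0.10 with VIP in Cy3. All 5 were above 0, and every Cy5 value was above both Cy3 values. With the fitted dye effect of 0.17 removed, 4 of the 5 were above 0 and replicate 3 was at -0.01. In the model the log2 ratio was 0.24 ± 0.07 (SE, n = 5), or 1.18-fold, with an adjusted p of 0.098 by limma, and the gene was not called.

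The marked spot on replicate 6 read -0.33, opposite in sign to the dimmer probe on that array (0.56). With outlier spots kept, the gene's log2 ratio was 0.17 (adjusted p = 0.32 by limma, n = 6). Rgs2 as a gene passed the threshold in 6 of 19 alternatives, 3 of them because the dimmer probe then stood for it. The adjusted p by limma ran from 0.0044 to 1.00 over these 19. The 1.00 came with the 12 channels unpaired, and the highest among the others was 0.33, with median centring in place of loess. The dimmer probe passed in 15 of 18. It did not with the scanner software's processed signals or with the authors' deposited value table, where its log2 ratio was larger and less precise (0.44, adjusted p = 0.084 by limma in each), or with the 12 channels unpaired (0.33, adjusted p = 1.00 by limma). The first 2 of these hold the same values and are not separate failures. Whether the 2 probes differ was not tested, and their 95% intervals overlapped.

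**Figure D2:**
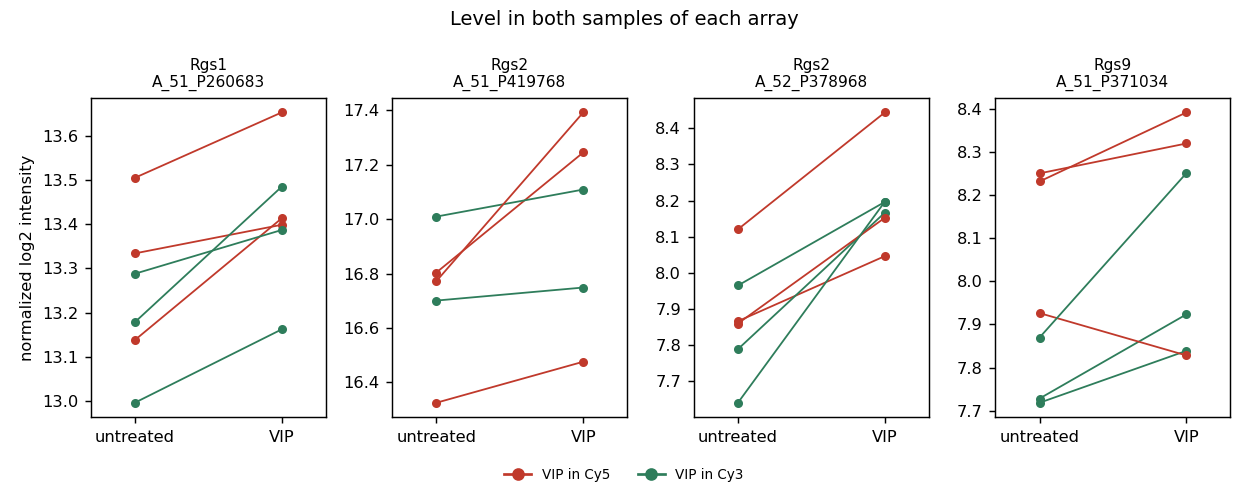
Normalized log2 intensity (y axis, a separate scale for each panel) in the untreated and VIP-treated sample of each array, joined by a line and coloured by the dye that carried VIP, for Rgs1, both Rgs2 probes and Rgs9. Lines rise on 6 of 6 arrays for Rgs1 and A_52_P378968, on 5 of 5 for A_51_P419768 and on 5 of 6 for Rgs9.

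Rgs1 dampens chemokine receptor signals in activated lymphocytes. Its single probe had levels of 13.2, 13.4 and 13.7 with VIP and 13.0, 13.2 and 13.5 without, as lowest, median and highest. These ranges overlapped widely, since arrays differed by more than the treatments, but every pair was higher with VIP. Ratios were 0.28, 0.06 and 0.15 with VIP in Cy5 and 0.17, 0.10 and 0.31 with VIP in Cy3, so the orientations gave nearly the same mean, 0.16 and 0.19.

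By slide the mean Rgs1 ratio was 0.22, 0.08 and 0.23. The fitted value was 0.18 ± 0.05 (SE, n = 6), or 1.13-fold with a 95% interval of 1.05 to 1.21. The unadjusted p was 0.0031 and the adjusted p 0.072 by limma, which does not pass. None of 19 alternatives brought it past the threshold. Its log2 ratio stayed between 0.15 and 0.20 in them, and the lowest adjusted p by limma was 0.066. Over the 6 arrays, with the dye effect removed, the genes whose ratios followed those of Rgs1 most closely of 12654 compared were Scgb1a1 (r = 0.999), Taf5 (r = 0.998) and Noct (r = 0.998). These are the highest of very many correlations over 6 points that share the same arrays, and are given as a description.

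Rgs16, which acts on Gi and Gq and is known from activated T cells, was read at chr1:155592244-155592303 on the plus strand. Its levels were 10.1, 10.4 and 10.7 with VIP and 9.91, 10.4 and 10.8 without. The ranges nearly coincided. Ratios were 0.02, 0.21 and 0.10 with VIP in Cy5 and -0.26, -0.09 and -0.09 with VIP in Cy3, above 0 in the first orientation and below 0 in the second. With both orientations in the model it was -0.02 ± 0.05 (SE, n = 6), with a 95% interval of 0.920 to 1.06-fold and an adjusted p of 0.89 by limma. Its sign turned without replicate 1 or 2.

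Rgs18 is known from platelets and megakaryocytes. Neither of its probes, at chr1:146600500-146600559 and chr1:146600137-146600196 on the minus strand, was well above background often enough to be tested. A_51_P325457 was well above background on 2 of 6 arrays in the VIP-treated sample and 1 of 6 in the untreated one, and A_52_P541161 on 2 and 0. Levels at A_51_P325457 were 6.20, 6.24 and 6.51 with VIP and 6.13, 6.28 and 6.51 without, over nearly the same range. Markers of platelets and megakaryocytes beside it included 3 of 7 that were well above background in both samples of all 6 arrays, and none of the 6 tested was called (median log2 ratio -0.04). The summed linear intensity of these 6 ran from 578 to 695 with VIP and from 623 to 692 without.

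On the chromosome, Rgs2, Rgs13, Rgs1, Rgs21 and Rgs18 follow each other with no other protein-coding gene between them in the RefSeq order, and Rgs8 is next to Rgs16. Within the first run, both Rgs1 and Rgs2 had an unadjusted p under 0.05 by limma. Rgs13 had a log2 ratio of -0.01 (adjusted p = 0.97 by limma, n = 6), Rgs21 was not tested, and Rgs18 was not above the filter.

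Rgs3, a larger member of the subfamily that acts on Gi and Gq, was read by 5 probes along chromosome 4, plus strand. The brightest, A_52_P522134 at chr4:62350689-62350748, had levels of 15.3, 16.8 and 17.8 with VIP and 15.8, 16.6 and 17.9 without. Ratios were 0.28, 0.81 and 0.49 with VIP in Cy5 and -0.59, -0.55 and -0.95 with VIP in Cy3. The ratio thus followed the dye, with all Cy5 values above 0 and all Cy3 values below. The fitted dye effect was 0.61 on the log2 scale, and 0.577% of all genes had a larger one in either direction. With the dye term in the model the log2 ratio for VIP was -0.08 ± 0.07 (SE, n = 6, adjusted p = 0.63 by limma).

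The other 4 Rgs3 probes had mean log2 intensities between 7.31 and 10.1, against 16.7 at A_52_P522134. Their dye effects lay between -0.11 and -0.03. Their log2 ratios were -0.06 (A_51_P211980 at chr4:62320758-62320817), -0.07 (A_52_P261868), -0.05 (A_51_P223583) and -0.05 (A_51_P253320 at chr4:62363141-62363200). All 5 were thus slightly negative, and the lowest adjusted p among them over all probes was 0.49 by limma. These probes share a gene and the same arrays and are not replicates. The scanner tables give 2 of them genomic spans far longer than 60 bases, so their sequence joins separate stretches of the genome. A_52_P261868 spans 678 bases (chr4:62361410-62362087) and A_51_P223583 spans 919 (chr4:62362192-62363110), and both are printed in lower case with nothing marked.
Rgs3 A_52_P261868: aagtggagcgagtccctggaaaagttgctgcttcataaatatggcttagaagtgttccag
Rgs3 A_51_P223583: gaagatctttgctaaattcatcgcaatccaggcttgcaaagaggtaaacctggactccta

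**Figure D3:**
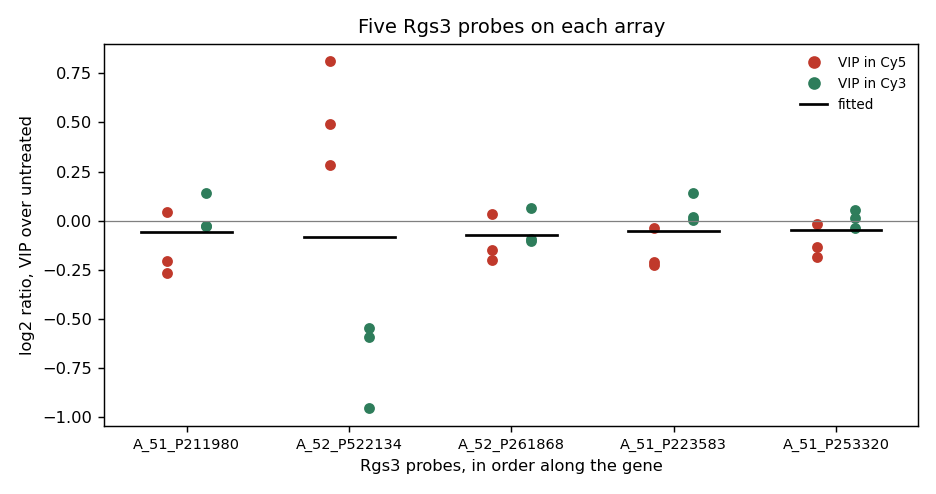
Log2 ratio of VIP over untreated (y axis) on each array for the 5 Rgs3 probes in order along the gene, coloured by the dye that carried VIP, with the fitted ratio as a black line. At A_52_P522134 the 3 Cy5 points lie at 0.28 or above and the 3 Cy3 points at -0.55 or below, while the fitted line sits at -0.08.

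The R7 subfamily, which includes Rgs9 and Rgs11, is known from nervous tissue and retina and works bound to the G-beta subunit Gnb5. Rgs9, at chr11:109086809-109086868 on the minus strand, had levels of 7.83, 8.09 and 8.39 with VIP and 7.72, 7.90 and 8.25 without. The ranges overlapped, and the VIP-treated sample was higher on 5 of 6 arrays. Ratios were 0.07, 0.16 and -0.10 with VIP in Cy5 and 0.12, 0.20 and 0.38 with VIP in Cy3, with replicate 5 the only one below 0. The fitted log2 ratio was 0.14 ± 0.05 (SE, n = 6), with a 95% interval of 1.02 to 1.19-fold, an unadjusted p of 0.020 and an adjusted p of 0.19 by limma.

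Rgs11, at chr17:26347980-26348039 on the plus strand, ran from 7.69 to 8.21 with VIP (median 7.78) and from 7.63 to 8.22 without (median 7.81). Its ratios of 0.20, 0.27 and 0.09 with VIP in Cy5 and -0.14, -0.18 and -0.05 with VIP in Cy3 again split by dye. The fitted log2 ratio was 0.03 ± 0.04 (SE, n = 6, adjusted p = 0.79 by limma), with a 95% interval of 0.957 to 1.09-fold.

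In the R12 subfamily, Rgs10 is little more than the RGS domain and acts on Gi, while Rgs14 is a scaffold that also binds inactive G-alpha and Ras-like GTPases. Rgs10 was read at chr7:135517256-135517315 on the minus strand, with levels of 15.7, 16.7 and 17.5 with VIP and 15.5, 16.5 and 17.8 without. Ratios were 0.40, 0.20 and 0.36 with VIP in Cy5 and -0.14, 0.12 and -0.34 with VIP in Cy3, higher in the first orientation on every slide. Rgs10 had a fitted log2 ratio of 0.10 ± 0.06 (SE, n = 6, adjusted p = 0.45 by limma). Over 19 alternatives it ran from 0.0057 with median centring in place of loess to 0.18 without replicates 3 and 6 (n = 4), with 0.039 without replicate 4 and 0.15 without replicate 6, and was never called.

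Rgs14, at chr13:55485762-55485821 on the plus strand, had levels of 12.2, 12.4 and 12.7 with VIP and 12.1, 12.4 and 12.7 without. The sets coincided almost entirely. Ratios were 0.12, 0.32 and 0.03 with VIP in Cy5 and -0.07, 0.0018 and 0.06 with VIP in Cy3. For Rgs14 the fit gave a log2 ratio of 0.08 ± 0.05 (SE, n = 6, adjusted p = 0.47 by limma).

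Rgs19, of the RZ subfamily, was described as a protein binding Gi-class G-alpha subunits. Its brighter probe, at chr2:181423447-181423506 on the minus strand, had levels of 11.6, 11.8 and 11.9 with VIP and 11.7, 11.7 and 12.1 without. The highest untreated value, that of replicate 6, lay apart from the other 5. Ratios were 0.04, 0.15 and 0.08 with VIP in Cy5 and -0.07, -0.04 and -0.18 with VIP in Cy3. The fitted log2 ratio was -0.0026 ± 0.041 (SE, n = 6), the smallest of the 9, and the 95% interval was 0.937 to 1.06-fold. The second probe, at chr2:181423795-181423854, had a log2 ratio of -0.07 ± 0.04 (SE, n = 6, adjusted p = 0.43 by limma over all probes) and was lower with VIP on 5 of 6 arrays.

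**Figure D4:**
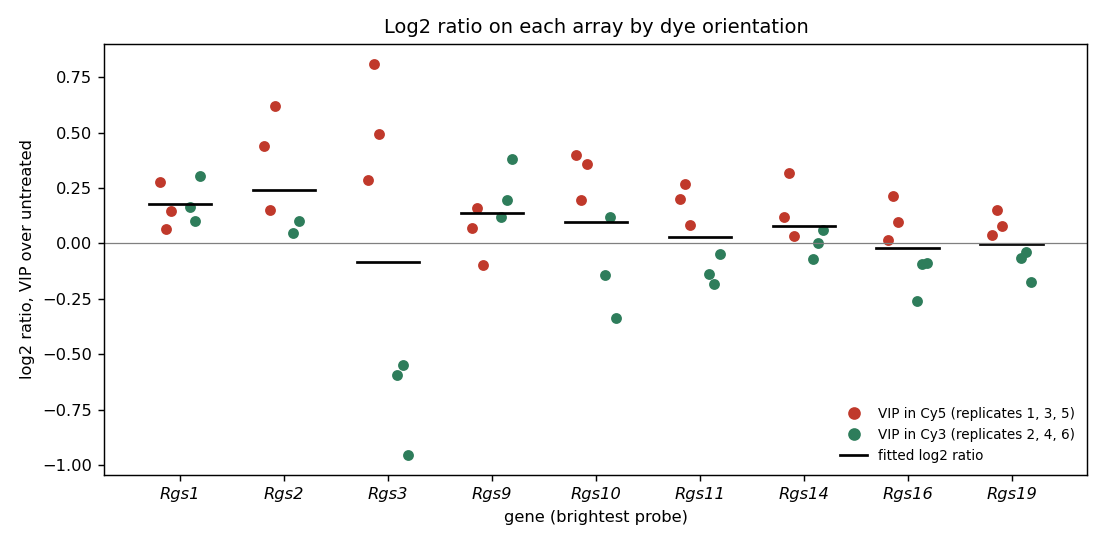
Log2 ratio of VIP over untreated (y axis) on each array for the brightest probe of the 9 tested RGS genes, with Cy5 and Cy3 marking the dye that carried VIP and a black line at the fitted ratio. Points of the 2 orientations mix for Rgs1, Rgs9 and Rgs14 and lie on opposite sides of 0 for Rgs3, Rgs11, Rgs16 and Rgs19.

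**Figure D5:**
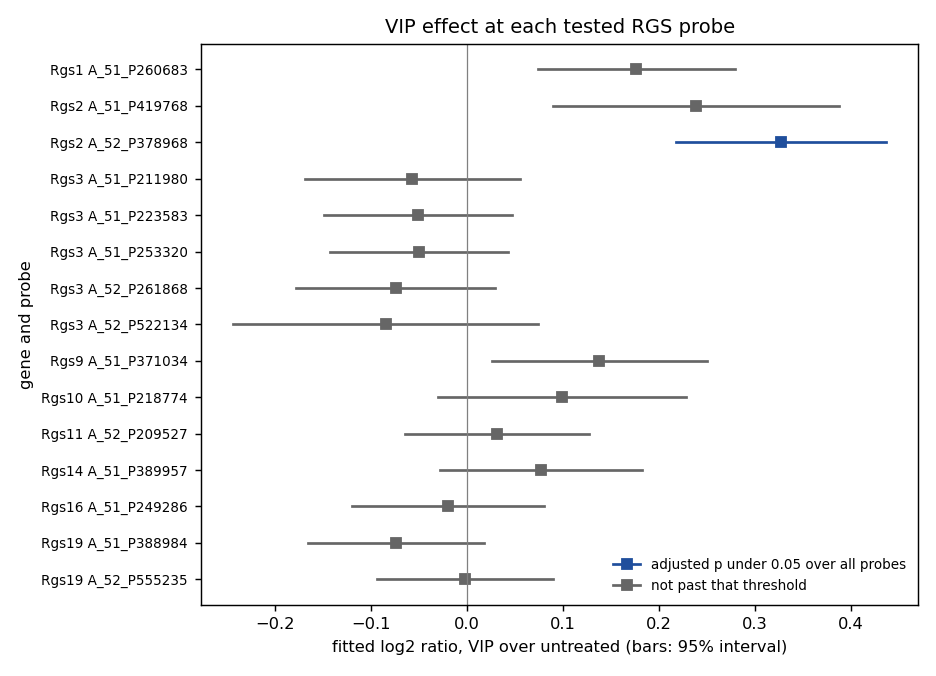
Fitted log2 ratio of VIP over untreated (squares, x axis) with its 95% interval (bars) for the 15 tested RGS probes, from limma over all probes. Only A_52_P378968 of Rgs2 (0.33, from 0.22 to 0.44) passed the threshold, and all 5 Rgs3 probes lie between -0.08 and -0.05.

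Genes that work with RGS proteins were read from lists, where the share of all genes called is again 3.09%. An unadjusted p under 0.05 by limma, in either direction, was seen for 3213 of all 19225 tested genes. Of 11 other RGS genes 6 were tested and none was called by limma, 0 of them with an unadjusted p under 0.05, and the median log2 ratio was -0.0097. The lowest p-values there belonged to Rgs8 at 0.08 (adjusted p = 0.46 by limma) and Rgs17 at -0.05 (adjusted p = 0.66 by limma), both with n = 6 and near background on several arrays. Rgs8 turned to -0.04 with median centring in place of loess. With an offset of 16 it was 0.16 and with the processed signals 0.45, while Rgs17 was -0.10 and -0.36. The size of both ratios thus depended on the background correction, and neither gene was called in any alternative. Of the 8 RGS partners and regulators of G-alpha, 6 were tested, none was called by limma, 1 had an unadjusted p under 0.05 and 5 were above 0. Gnb5, the obligate partner of Rgs9 and Rgs11, had 0.15 ± 0.04 (SE, n = 6) and was higher with VIP on 6 of 6 arrays, at an adjusted p of 0.085 by limma. Gpsm1, which holds G-alpha in its inactive form, had 0.08 ± 0.04 (SE, n = 6, adjusted p = 0.36 by limma).

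Among 14 tested other proteins with an RGS domain 1 was called. Grk5, a kinase that phosphorylates active receptors, rose 1.17-fold (log2 ratio 0.23 ± 0.05, SE over 6 arrays), with an adjusted p of 0.024 by limma and a higher value on 6 of 6 arrays. The list's median was -0.03, with 4 of 14 above 0. Of 13 tested G-alpha subunits the rod transducin Gnat1, a substrate of Rgs9 in the retina, rose 1.21-fold (log2 ratio 0.27 ± 0.05, SE over 6 arrays), with an adjusted p of 0.016 by limma. The Gnat1 probe was well above background on 4 of 6 VIP-treated and 3 of 6 untreated samples. At that probe the log2 ratio was 0.46 with an offset of 16 and 1.08 with the processed signals or the authors' value table, so the size of the change depended on the background correction. With outlier spots kept, another probe, A_51_P160858, stood for the gene, with a log2 ratio of 0.05 (adjusted p = 0.62 by limma). The median of that list was 0.03. Of 19 tested Gi-coupled receptors found on T cells, Ccr7, the chemokine receptor for entry into lymph nodes, rose 1.22-fold (log2 ratio 0.29 ± 0.06, SE over 6 arrays). Its adjusted p was 0.032 by limma, it was higher on 5 of 6 arrays, and the list's median was 0.02. Over the alternatives tried, Grk5 passed in 8 of 19, Gnat1 in 11 of 18 and Ccr7 in 7 of 19, so each call was lost in several. The lowest adjusted p by limma was 0.019 for Grk5, 0.0072 for Gnat1 and 0.018 for Ccr7. The highest was 1.00 for each, with the 12 channels unpaired, which drops the pairing within arrays. Among the other alternatives the highest was 0.27 for Grk5, 0.62 for Gnat1 and 0.19 for Ccr7.

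As a check of the cell type, all 9 T cell markers tested, with Cd3d, Cd3e, Cd3g and Cd4 among them, were well above background in both samples of all 6 arrays. Thy1 fell (log2 ratio -0.29 ± 0.05 (SE, n = 6), adjusted p = 0.015 by limma), and the list's median was -0.07. Cd3d and Cd3g were lower with VIP on 6 of 6 arrays but not called (adjusted p = 0.12 and 0.10 by limma). The fitted log2 ratio was above 0 for 3 of the 9, Cd3e (0.03), Cd4 (0.01) and Cd5 (0.08), none of them called. Of 8 B cell markers, 7 were also well above background throughout, with a median log2 ratio of -0.05 and none called. Their summed linear intensity ran from 7926 to 15676 with VIP and from 8769 to 16509 without. The summed intensity of 7 T cell markers measured on all arrays ran from 221678 to 310796 with VIP and from 226939 to 348131 without. Other tested markers well above background in both samples of all 6 arrays included 2 of 2 for CD8 T cells. For macrophages and monocytes these were 6 of 8, for plasma cells 4 of 5 and for erythroid cells 3 of 3. For dendritic cells they were 4 of 6, for neutrophils 3 of 4 and for NK cells 3 of 6. The 9 marker lists for cells other than CD4 T cells, B cells among them, had median log2 ratios between -0.11 and 0.09. None of their genes was called by limma, and 4 had an unadjusted p under 0.05, against 3213 of all 19225 tested genes. On replicate 6, the array with the highest ratio at Rgs1 and at the dimmer Rgs2 probe, the neutrophil markers S100a8 and S100a9 had log2 ratios of 0.87 and 1.56. The other tested neutrophil markers, Mpo and Ngp, had 0.03 and 0.06 on that array. Over the 8 tested markers of macrophages and monocytes the median there was 0.19, from -0.06 (Itgam) to 0.43 (Lyz2). On the other arrays this median lay between -0.05 and 0.13. Cd14, of the same list, was higher with VIP on 5 of 6 arrays (fitted log2 ratio 0.18, adjusted p = 0.092 by limma, n = 6). Without replicate 6 Rgs1 had 0.15 (adjusted p = 0.20 by limma, n = 5) and the dimmer Rgs2 probe 0.28 (adjusted p = 0.023 by limma, n = 5). The part of such differences in the Rgs1 and Rgs2 values was not tested otherwise. On replicates 3 and 6 the samples of the pair differed in sex-linked transcripts (Xist at log2 ratios of -6.12 and 2.03), while the other 4 arrays lay between -0.08 and 0.34. Without these arrays Rgs1 had 0.17 (adjusted p = 0.17 by limma), the dimmer Rgs2 probe 0.28 (adjusted p = 0.042 by limma), the brighter one 0.30 (adjusted p = 0.029 by limma) and Rgs9 0.07 (adjusted p = 0.65 by limma), all with n = 4.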

How the data were processed

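Spot intensity values are as deposited. They were written by Agilent Feature Extraction 9.5.1.1 and place probes on mm9, per the file headers. The authors' deposited value table holds log10 ratios turned so that VIP-treated stands over untreated, and was an alternative only. Mean signal over median local background was corrected with normexp (offset 50), and spots marked as outliers by the scanner software were left out. Loess within arrays and, for levels, Aquantile between arrays followed, in limma 3.58.1 and R 4.3.3. Probes well above background on at least 3 of 6 arrays in either treatment's channel, and measured on at least 2 arrays per dye orientation, were tested. Each gene took its brightest probe.

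Log2 ratios were fitted with limma, with a dye term per probe, 2-sided, with Benjamini-Hochberg adjustment over all genes or all probes. Both samples of a replicate were paired on 1 array, and the dyes were swapped between replicates. The same steps were tested on simulated data. The number of arrays limits the precision (median SE 0.048).

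The members, the gene lists and the tests were chosen with earlier results of these data known. All 10 members are named, with the called genes of each list of genes that work with RGS proteins or, where there were none, the 2 of lowest p, and the 3 genes most like Rgs1. Rgs13, Thy1, Cd3d, Cd3e, Cd3g, Cd4, Cd5, S100a8, S100a9, Mpo, Ngp, Itgam, Lyz2, Cd14 and Xist were named beside these, after their values were seen. Exons and UTRs of the probes are not given. Gene names were updated through RefSeq accessions for 24844 of 41174 probes.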

Additional observations from a re-analysis of the deposited data

Results flagged for a closer look

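In 4 sets of 6 samples, 1 sample lay apart from the others by more than Dixon's limit allows, and chance alone does this in about 1 in 20 sets, of which 49 were looked at. Replicate 4 was highest at the Rgs3 probe A_51_P253320 both with VIP (8.70, normalized log2 intensity) and untreated (8.74), and the ratio on that array was -0.04. Replicate 5 was highest at the Rgs18 probe A_51_P325457 with VIP (6.51), a probe well above background on 2 of the 6 arrays in that treatment. Replicate 6 was highest at the Rgs19 probe A_52_P555235 in the untreated sample (12.1).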

How the results depend on the processing

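Against 594 genes changed by VIP (331 higher and 263 lower), 41 (31 and 10) were called from the processed signals or from the authors' value table, 308 (210 and 98) with median centring, 124 (87 and 37) without the dye term and 5 (4 and 1) with the 12 channels unpaired, that is with no replicate block. An offset of 16 gave 371 with 149 lower, and keeping outlier spots gave 149 lower. More were called with slide as a fixed block (743 of 17736 tested) and without the filter on dim probes (667 of 27224). Requiring signal well above background on all 6 arrays in both channels gave 612 of 14543. The count was 589 with no minimum of arrays per dye orientation and 561 with the mean of a gene's probes. Leaving out 1 replicate gave 247 to 461 (149 to 265 higher, 98 to 199 lower): 281 without replicate 1, 247 without replicate 5 and 351 without replicate 6. Without replicates 3 and 6, an alternative chosen after seeing the data, 339 were called (214 and 125).

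Rgs19 turned positive with median centring (0.011), with outlier spots kept (0.0025), without replicate 1 (0.0096), 5 (0.00051) or 6 (0.018), and without replicates 3 and 6 (0.0027), and ran from -0.018 to 0.018 with 1 replicate left out. Rgs16 turned positive without replicate 1 (0.0032) or 2 (0.0086), in a range from -0.046 to 0.0086, Rgs11 was -0.0087 without replicates 3 and 6, and Rgs8 was -0.039 with median centring. Rgs1, Rgs2, Rgs3, Rgs9, Rgs10 and Rgs14 kept their sign in all 19 alternatives, with ranges of -0.16 to -0.02 for Rgs3, 0.07 to 0.19 for Rgs9, 0.0057 to 0.18 for Rgs10 and 0.02 to 0.11 for Rgs14. The causes were not tested. No member besides Rgs2 was called in any of them. Dim probes such as those of Rgs18 limit what can be read.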
